A study of Homo sapiens with 12 samples.

Results

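The genes of mitosis described here are 40 genes chosen by name for their known work in cell division: the mitotic cyclins with CDK1 and its activator, other mitotic kinases, the spindle checkpoint, the machinery of anaphase, centromere and kinetochore proteins, kinesin motors, spindle assembly factors, cytokinesis factors, TOP2A, MKI67 and the transcription factor FOXM1. All 40 of 40 were measured, among 19775 genes in all. They were read in the human myeloma cell line INA-6, which grows in interleukin-6, with 10% serum and 2 ng/ml interleukin-6 in the medium of all 3 groups. The groups of 4 arrays each had received DMSO (the solvent), SB590885, which inhibits Raf kinases, or PD325901, which inhibits MEK, the kinase that Raf activates. Total RNA (100 ng per array) was hybridised to Affymetrix HG-U133 Plus 2.0 arrays. Neither dose nor treatment time is given in the sources used here, INA-6 is 1 cell line, and the DMSO arrays serve as the control of both inhibitors.

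A cell enters mitosis when CDK1, bound to cyclin B, is activated by the phosphatase CDC25C. Chromosomes then condense, kinetochores built on the centromeres catch the spindle's microtubules, and the spindle checkpoint holds back the anaphase-promoting complex until every chromosome is attached. Most genes of this machinery are transcribed together late in the cell cycle, through promoter elements read by the MuvB complex with B-Myb and FOXM1, so that their RNA is abundant in dividing cells and low in resting ones. In a bulk sample, fewer cells in mitosis and less RNA per cell cannot be told apart.

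Values are log2 expression values (RMA) of the probe set with the highest mean of each gene. Members ranged from a mean of 7.93 for PLK1, with 60.9% of all genes below it, to 12.31 for BUB3, with 97.8% of genes below it, while the median of all probe sets was 6.92. Probes differ in brightness, so these levels do not rank the genes among themselves. Array medians lay between 6.88 and 6.97. All 10 plasma cell markers were above 9 on average (JCHAIN 13.97, SDC1 10.43). In contrast, 0 of 4 B cell, 0 of 8 T and NK cell, 0 of 4 monocyte, 0 of 5 fibroblast, 0 of 2 erythroid and 0 of 4 endothelial markers were, with MS4A1 at 6.67 and CD3E at 6.94. The mean of the plasma cell markers was 11.39 to 11.67 on SB590885 arrays against 11.68 to 12.11 on DMSO arrays and 11.74 to 12.27 on PD325901 arrays, and the difference between 3′ and 5′ GAPDH probe sets was 0.391 to 0.471, 0.335 to 0.401 and 0.369 to 0.505. For ACTB that difference was 1.41 to 1.57 on arrays 3 and 4 of the groups and 1.65 to 1.85 on arrays 1 and 2. The part of any of these in the results on mitosis genes was not tested.

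Arrays 3 and 4 of every group stood apart. A second label marks them with an R, whose meaning is not given. The mark goes with the array number (1 and 2 without it, 3 and 4 with it). The p-values for it treat arrays of the same number, from all treatments, as nearly independent. They do not measure how far a further array number would differ. Over the 6 marked and 6 unmarked arrays, the median difference of the mitosis genes (marked minus unmarked) was -0.25, and 26 members were lower and 1 higher at an adjusted p under 0.05, where 32.1% of all genes were lower and 23.4% higher. The ACTB values above separate the same arrays without overlap, and their part in this shift was not tested. The largest difference was that of TOP2A, which relieves DNA tangles, at 11.53 ± 0.157 (SD, n = 6) on marked and 12.26 ± 0.114 (SD, n = 6) on unmarked arrays, a difference of -0.73 (SE 0.052, adjusted p = 2.39e-07). KIF11 differed by -0.57 and NUF2 by -0.56, whereas PLK1 was higher by 0.17. Genes as bright as most members moved the same way: among 3067 genes with a mean of at least 10, the median was -0.28 and 80.3% were lower, against a median of -0.30 for the 31 members in that range, of which 24 were lower. After quantile normalisation the median of the members turned to 0.050, with 17 higher and 10 lower, while TOP2A was still lower (-0.43).

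**Figure D1:**
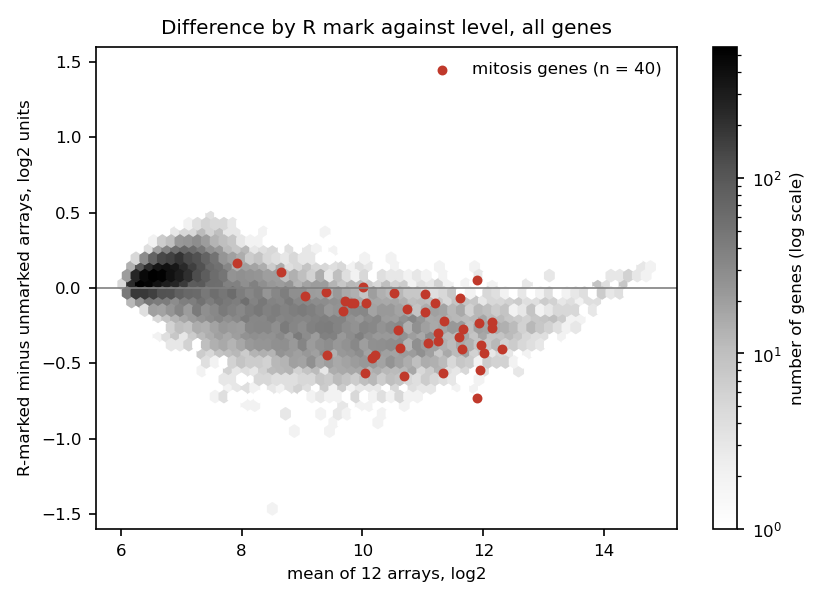
Difference between the 6 arrays with the R mark and the 6 without it (y axis, log2 units) against the mean of 12 arrays (x axis, log2) for 19775 genes (grey, shade gives the number of genes on a log scale) and the 40 mitosis genes (red); 4 genes lie beyond the axis limit of 1.6. Most mitosis genes lie within the band of other genes of their brightness, which falls below 0 above a level of about 8, and TOP2A is the lowest of them at -0.73.

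At the median of the members this shift is larger than the changes with either inhibitor, so each comparison was made both over the arrays as independent samples and with the replicate number as a block, which sets each treated array against the control array of the same number. Arrays of the same number deviated together. The block lowered the median standard error of the members from 0.112 to 0.057. Below, "without the block" and "with the block" name these 2 fits, and p-values are adjusted over all 19775 genes.

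SB590885 against DMSO asks what a Raf inhibitor does to these genes. The response was divided: 9 of 40 members rose with the block and 4 fell, against 9.09% and 9.84% of all genes. The share that fell is close to that of all genes and the share that rose is above it. Over the unmarked arrays alone the balance was the other way: 5 members rose and 8 fell (6.52% and 6.81% of all genes), and over the marked arrays 2 rose and 1 fell (2.16% and 3.23%). CDC25C, CENPF and the spindle motor KIF11 had the largest rises, and DLGAP5, AURKA, TOP2A and PLK1 fell. Without the block 2 members rose (CDC25C and CENPF) and 0 fell, against 1.59% and 1.69% of all genes by limma. At an unadjusted p under 0.05, 3 were higher and 3 lower, which is about the share of all genes (13.5%). The median over the 40 was 0.02 (all genes 0.00), with 23 higher and 17 lower. Quantile normalisation moved that median to 0.10 (28 higher and 12 lower) and centring each array to -0.00 (19 and 21), so the balance of signs depends on the scaling. The median size of change without regard to sign was 0.127 for the members and 0.059 for all genes. Neither these sizes nor the shares of all genes given here and below are matched for brightness: 31 of the 40 members but 3067 of 19775 genes had a mean of at least 10. The 4 SB590885 arrays lay wholly above the 4 DMSO arrays for 3 members, CDC25C, CENPF and KIF4A, and wholly below for 0, where 4.45% and 5.76% of all genes did so.

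**Figure D2:**
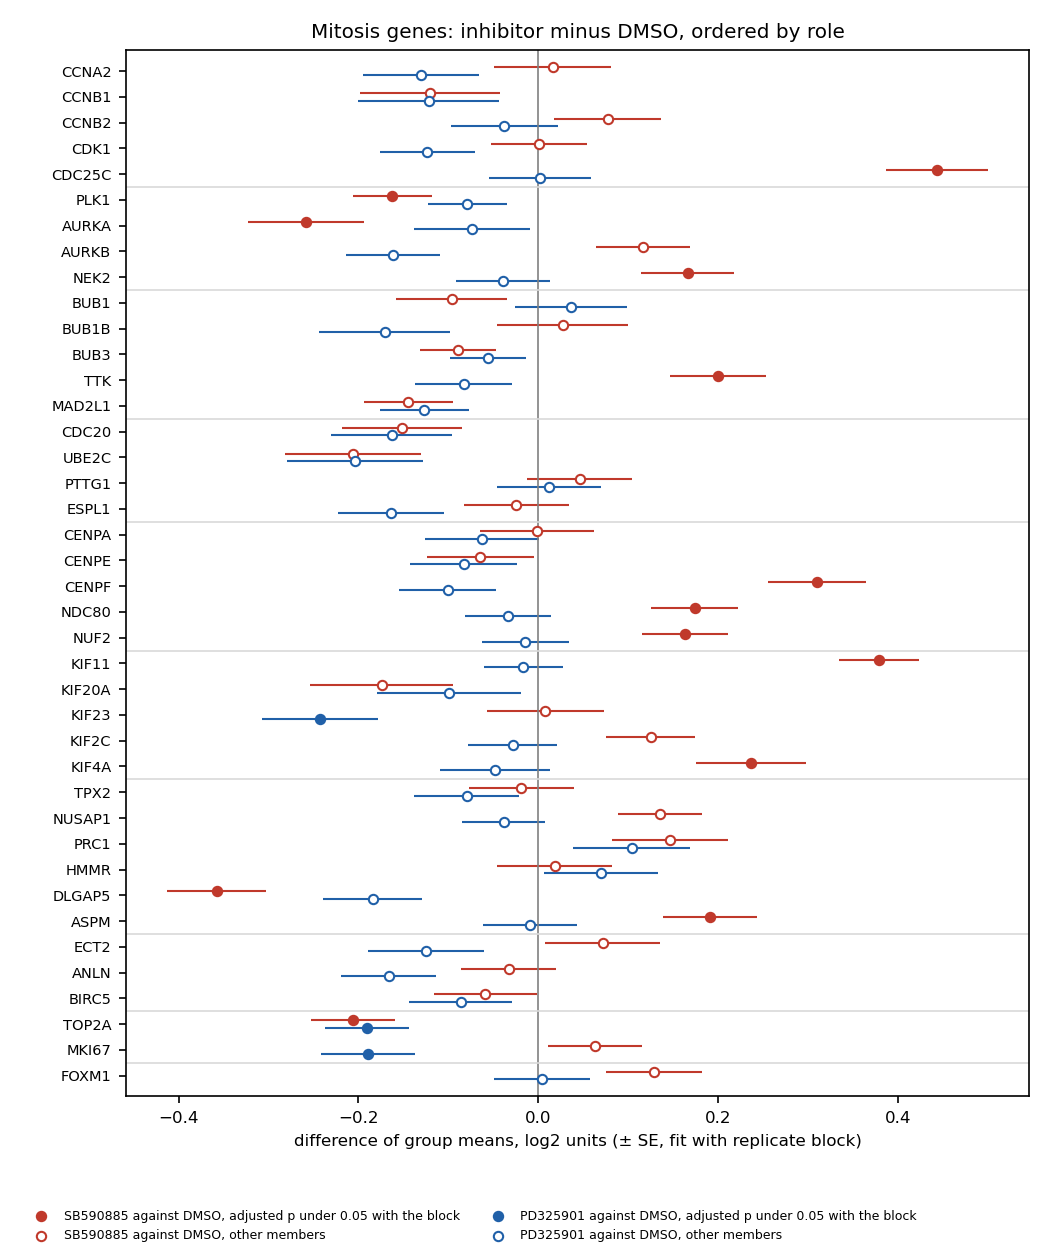
Difference of each inhibitor from DMSO (x axis, log2 units, bars ± SE of the fit with the block) for the 40 mitosis genes in order of role (y axis), SB590885 in red and PD325901 in blue, filled where the adjusted p with the block was under 0.05. CDC25C at 0.44 and DLGAP5 at -0.36 mark the ends of the SB590885 range, while PD325901 values run from -0.24 (KIF23) to 0.10 (PRC1).

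Of the 5 genes of mitotic entry, CDC25C was the one that rose. This phosphatase removes the inhibitory phosphates from CDK1. Its level was 8.32, 8.53, 8.55 and 8.59 on DMSO arrays 1 to 4 and 8.86, 8.86, 8.89 and 9.15 on SB590885 arrays 1 to 4. Every SB590885 array was thus above every DMSO array. The difference was 0.44 (SE 0.075, 1.36-fold, adjusted p = 0.00989; with the block SE 0.057, adjusted p = 0.000102), and it was 0.44 over the unmarked and 0.45 over the marked arrays. A second CDC25C probe set, dimmer at 7.25, differed by 0.19 (adjusted p = 0.0616 over all probe sets, 0.0114 with the block) and another, at 6.70, by 0.07. The call was lost after quantile normalisation without the block (adjusted p = 0.0533) and where the dimmest probe set, whose name lacks an s, x or a mark, stood for the gene (adjusted p = 0.924).

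CDK1 itself, the kinase that drives entry, was 12.20, 12.22, 11.92 and 11.86 on DMSO arrays and 12.31, 12.27, 11.72 and 11.90 on SB590885 arrays, a difference of 0.00 (95% interval with the block -0.11 to 0.11). Other CDK1 probe sets, with means of 11.09, 10.83 and 7.17, differed by -0.10, -0.10 and -0.18. With the block over all probe sets their adjusted p was 0.246, 0.265 and 0.0441. CCNB1, its cyclin B1 partner, was 12.07, 12.20, 11.89 and 11.90 with DMSO and 11.91, 11.87, 11.87 and 11.94 with SB590885, a difference of -0.12 (interval -0.29 to 0.05, adjusted p = 0.364 with the block). The groups overlapped for both. CCNA2 (0.02) and CCNB2 (0.08), further mitotic cyclins, did not pass either fit.

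Among the other mitotic kinases the values went in opposite directions. PLK1, which acts from mitotic entry to cytokinesis, was 7.91, 7.98, 8.02 and 8.12 on DMSO arrays and 7.74, 7.72, 7.98 and 7.94 on SB590885 arrays. It was lower in 4 of 4 same-number pairs, by -0.16 (SE 0.044, adjusted p = 0.0180 with the block, 0.366 without), although the ranges overlapped. AURKA, the kinase of the spindle poles, was 11.78, 11.73, 11.55 and 11.85 with DMSO and 11.49, 11.35, 11.44 and 11.60 with SB590885. It too was lower in 4 of 4 pairs, by -0.26 (SE 0.064, adjusted p = 0.0109 with the block, 0.244 without). Where the R mark stood in place of the block, AURKA did not pass (adjusted p = 0.0682). AURKB, the kinase of the chromosomal passenger complex, was 9.91, 10.02, 10.02 and 10.14 with DMSO and 10.06, 10.18, 10.15 and 10.16 with SB590885. Its difference of 0.12 did not pass (adjusted p = 0.160 with the block). NEK2, which separates centrosomes, rose with the block: 10.76, 10.75, 10.24 and 10.56 with DMSO became 10.95, 10.93, 10.55 and 10.54, a difference of 0.17 (SE 0.052, adjusted p = 0.0378; 0.831 without). A dimmer NEK2 probe set, at 7.93, differed by -0.07 (adjusted p = 0.595 with the block over all probe sets), so that rise rests on the brighter one. NEK2 too did not pass where the R mark stood in place of the block (adjusted p = 0.103).

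In the spindle checkpoint 1 of 5 members passed. TTK (MPS1), the kinase that starts checkpoint signalling, was 10.39, 10.42, 10.00 and 9.87 on DMSO arrays and 10.66, 10.43, 10.19 and 10.20 on SB590885 arrays. Array by array it was higher in 4 of 4 pairs, by 0.20 (SE 0.054, adjusted p = 0.0168 with the block, 0.782 without), though the ranges overlapped because arrays 3 and 4 were low in both groups. The checkpoint proteins BUB1 (-0.10), BUB1B (0.03), BUB3 (-0.09) and MAD2L1 (-0.14, adjusted p = 0.0557 with the block) did not pass. Nor did any of the 4 genes of anaphase: CDC20, the checkpoint's target, was at -0.15, UBE2C, an enzyme of the anaphase-promoting complex, at -0.21, PTTG1 (securin) at 0.05 and ESPL1 (separase) at -0.02.

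The outer kinetochore held 3 risers. CENPF, a large kinetochore protein made in late cell cycle, was 10.32, 10.57, 10.40 and 10.49 with DMSO and 10.71, 10.76, 10.68 and 10.87 with SB590885, with no overlap. The difference was 0.31 (SE 0.074, 1.24-fold, adjusted p = 0.0440; with the block SE 0.054, adjusted p = 0.000988). It was 0.29 over the unmarked and 0.33 over the marked arrays. Without the block the call lies close to the threshold: it was lost when any of 10 of the 12 arrays was left out (all but PD325901 arrays 1 and 3; adjusted p 0.0521 to 0.140 in those), over the unmarked (0.0542) or the marked arrays (0.0579) alone, and after centring (0.114), quantile normalisation (0.0602), trended robust moderation (0.129) or averaging of its 3 probe sets (0.658). With that average the difference was 0.10 and did not pass with the block either (adjusted p = 0.114). Of the 3 probe sets, the dimmer 2 differed by 0.076 and -0.075. NDC80 (HEC1) and NUF2 are partners in the complex that grips microtubules. NDC80 was 10.69, 10.71, 10.35 and 10.44 with DMSO and 10.81, 10.79, 10.64 and 10.64 with SB590885, higher in 4 of 4 pairs by 0.17 (adjusted p = 0.0199 with the block, 0.612 without). NUF2 was higher in 3 of 4 pairs by 0.16 (adjusted p = 0.0282 with the block). The centromeric histone CENPA (-0.00) and the kinesin CENPE (-0.06) did not pass.

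KIF11 (Eg5), the motor that pushes spindle poles apart, gave the lowest p of all 40 members with the block. Its level was 10.24, 10.16, 9.63 and 9.66 on DMSO arrays and 10.53, 10.65, 10.05 and 9.98 on SB590885 arrays. The rise was seen in 4 of 4 pairs and came to 0.38 (SE 0.044, adjusted p = 5.29e-05), against a standard error of 0.207 and an adjusted p of 0.506 without the block, since arrays 3 and 4 were low in both groups. Over the unmarked arrays alone the difference was 0.39 and over the marked ones 0.37. KIF4A, a chromosome-arm motor, was 9.62, 9.69, 9.58 and 9.56 with DMSO and 9.88, 9.91, 9.81 and 9.79 with SB590885. These ranges did not overlap, and the difference was 0.24 (adjusted p = 0.0137 with the block, 0.199 without). KIF20A (-0.17), KIF23 (0.01) and KIF2C (0.12) did not pass.

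**Figure D3:**
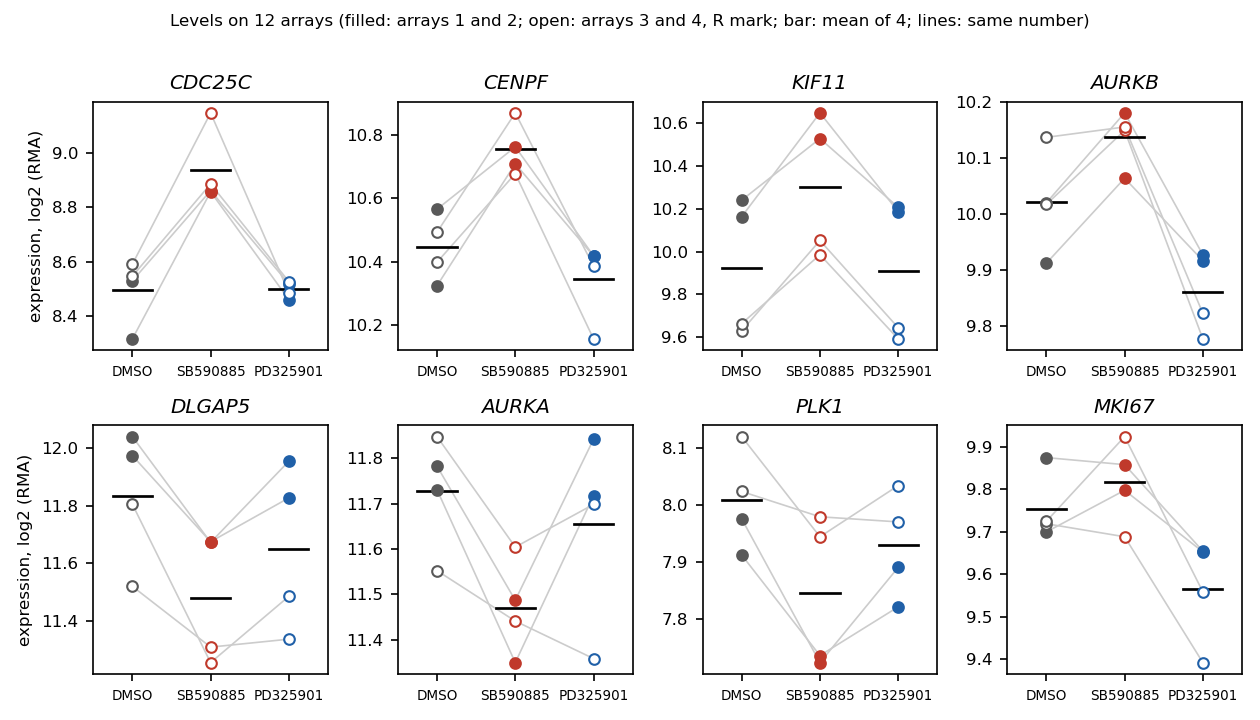
Level of 8 mitosis genes on each of the 12 arrays (y axis, log2 expression, a separate scale per gene) by treatment (x axis); filled points are arrays 1 and 2, open points arrays 3 and 4 with the R mark, bars are means of 4 arrays and grey lines join arrays of the same number. For KIF11 the open points lie below the filled ones in each group, yet every line rises from DMSO to SB590885 and falls again to PD325901.

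DLGAP5 (HURP), which stabilises spindle fibres, had the largest fall. It was 12.04, 11.97, 11.52 and 11.81 on DMSO arrays and 11.67, 11.67, 11.31 and 11.25 on SB590885 arrays. All 4 pairs were lower, by -0.36 on average (SE 0.055, adjusted p = 0.000395 with the block, 0.342 without), and the ranges overlapped. ASPM, a spindle pole protein, rose with the block by 0.19 (adjusted p = 0.0185), but not with the R mark in its place (adjusted p = 0.0984). Its dimmer probe sets, at 9.36 and 8.59, differed by 0.12 and -0.11 and did not pass (adjusted p = 0.248 and 0.282 with the block over all probe sets). The other spindle factors, TPX2 (-0.02), NUSAP1 (0.14), PRC1 (0.15) and HMMR (0.02), did not pass, and nor did the cytokinesis genes ECT2 (0.07), ANLN (-0.03) and BIRC5 (survivin, -0.06).

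TOP2A was 12.40, 12.39, 11.61 and 11.70 with DMSO and 12.20, 12.11, 11.38 and 11.60 with SB590885. Lower in 4 of 4 pairs, it differed by -0.21 (SE 0.047, adjusted p = 0.00605 with the block, 0.907 without). A second bright TOP2A probe set differed by -0.07 (adjusted p = 0.446 with the block over all probe sets), so that fall rests on 1 of them. For MKI67, which encodes the proliferation antigen Ki-67, the brightest probe set read 9.70, 9.87, 9.72 and 9.72 with DMSO and 9.80, 9.86, 9.69 and 9.92 with SB590885, a difference of 0.06 (adjusted p = 0.513 with the block). Of its other probe sets, one with a mean of 9.32 was higher by 0.27 (adjusted p = 0.0416 over all probe sets without the block) and one with a mean of 7.70 by 0.29 (adjusted p = 0.0196), so the probe sets disagree on MKI67. FOXM1 was 8.95, 9.11, 8.91 and 9.08 with DMSO and 9.10, 9.17, 9.17 and 9.12 with SB590885. It was higher in 4 of 4 pairs by 0.13, which did not pass (adjusted p = 0.125 with the block).

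The 4 that fell over the unmarked arrays but did not pass with the block were CCNB1 (-0.25, against 0.00 over the marked arrays), CDC20 (-0.29 against -0.02), UBE2C (-0.33 against -0.09) and KIF20A (-0.35 against -0.00). The 13 members that passed with the block kept their direction over the unmarked and over the marked arrays taken alone. They were picked from these same arrays, so that agreement is largely built in and is no separate support. The values, unmarked first, were -0.21 and -0.11 for PLK1, -0.34 and -0.18 for AURKA, -0.33 and -0.38 for DLGAP5, and -0.24 and -0.17 for TOP2A. Among the genes that rose they were 0.19 and 0.14 for NEK2, 0.14 and 0.26 for TTK, 0.10 and 0.25 for NDC80, 0.25 and 0.07 for NUF2, 0.24 and 0.23 for KIF4A, and 0.14 and 0.24 for ASPM. Whether treatment effects differ by R mark could hardly be shown with 2 arrays per treatment and mark: that interaction passed for 1 of 19775 genes and 0 members, while 7 of 40 members had an unadjusted p under 0.05, against 6.63% of all genes.

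**Figure D4:**
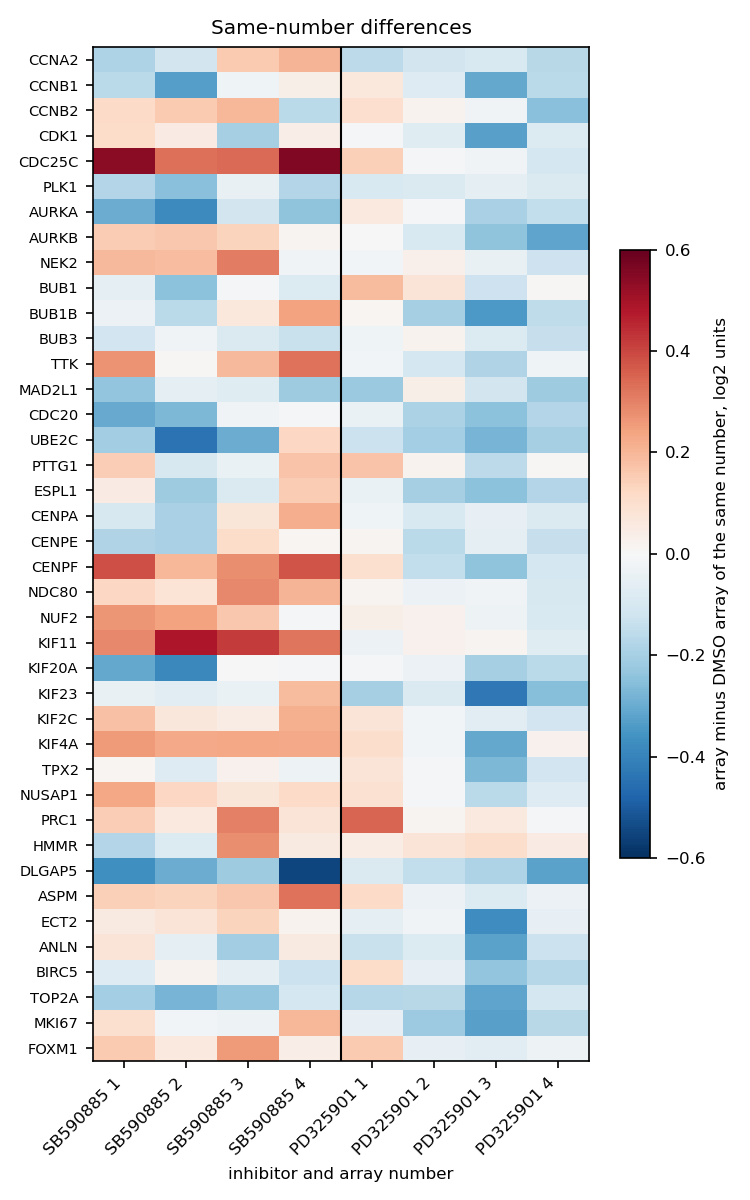
Difference of each inhibitor array from the DMSO array of the same number (colour, log2 units, red higher and blue lower, scale limits at 0.6 on either side) for the 40 mitosis genes (rows) and 8 inhibitor arrays (columns). The values run from -0.55 to 0.56. CDC25C, KIF11 and KIF4A are red in all 4 SB590885 columns and DLGAP5 blue. Of the PD325901 columns, array 1 is mixed red and blue, and arrays 2, 3 and 4 are mostly pale blue, deepest in array 3.

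The promoters of these genes share sequence that the choice of members did not use. The windows below are 250 bases before to 50 bases after the start of the gene, as RefSeq gives it on GRCh38.p14, for 3 genes that rose and 2 that fell with the block. Each is read 5′ to 3′ on the gene's strand. Capitals mark 2 short elements on either strand: CCAAT (or ATTGG), the box bound by NF-Y, and TTTGAA (or TTCAAA), a core of the cell cycle genes homology region (CHR) that MuvB complexes bind.
CDC25C promoter, chr5:138331755-138332054, minus strand: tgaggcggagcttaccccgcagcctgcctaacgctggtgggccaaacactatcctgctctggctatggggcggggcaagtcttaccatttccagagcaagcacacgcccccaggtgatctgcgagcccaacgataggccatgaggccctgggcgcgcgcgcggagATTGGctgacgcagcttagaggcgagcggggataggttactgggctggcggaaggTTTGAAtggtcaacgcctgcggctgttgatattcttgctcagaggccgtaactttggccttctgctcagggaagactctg
CENPF promoter, chr1:214602945-214603244, plus strand: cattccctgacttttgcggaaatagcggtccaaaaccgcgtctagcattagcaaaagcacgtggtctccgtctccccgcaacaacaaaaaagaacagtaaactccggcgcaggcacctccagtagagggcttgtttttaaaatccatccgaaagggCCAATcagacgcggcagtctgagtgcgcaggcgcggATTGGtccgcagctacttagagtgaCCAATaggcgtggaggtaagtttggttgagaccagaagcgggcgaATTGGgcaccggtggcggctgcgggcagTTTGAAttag
KIF11 promoter, chr10:92592880-92593179, plus strand: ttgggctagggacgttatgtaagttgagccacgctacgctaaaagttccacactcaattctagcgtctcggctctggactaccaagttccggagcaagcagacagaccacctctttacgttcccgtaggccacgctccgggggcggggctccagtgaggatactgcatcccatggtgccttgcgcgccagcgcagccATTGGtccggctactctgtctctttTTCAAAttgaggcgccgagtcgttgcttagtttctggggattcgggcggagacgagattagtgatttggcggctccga
PLK1 promoter, chr16:23678639-23678938, plus strand: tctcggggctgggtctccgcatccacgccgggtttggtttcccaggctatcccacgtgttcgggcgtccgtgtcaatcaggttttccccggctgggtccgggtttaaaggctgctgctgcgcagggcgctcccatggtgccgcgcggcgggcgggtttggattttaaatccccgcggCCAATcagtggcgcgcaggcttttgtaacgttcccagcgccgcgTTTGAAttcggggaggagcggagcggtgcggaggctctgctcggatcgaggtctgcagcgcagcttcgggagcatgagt
DLGAP5 promoter, chr14:55191536-55191835, minus strand: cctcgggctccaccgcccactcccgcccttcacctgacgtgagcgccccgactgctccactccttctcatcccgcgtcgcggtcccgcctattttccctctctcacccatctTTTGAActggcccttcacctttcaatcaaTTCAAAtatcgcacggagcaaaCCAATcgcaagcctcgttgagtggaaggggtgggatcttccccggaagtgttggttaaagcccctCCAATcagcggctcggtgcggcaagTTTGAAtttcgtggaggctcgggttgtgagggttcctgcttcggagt
In the first CDC25C window (of 4 starts), the CCAAT box begins 85 bases and the CHR element 30 bases before the start. KIF11 has them at 53 and 28 bases before the start and PLK1 at 73 and 29. In the CENPF window the CHR element begins 40 bases after the start. DLGAP5 holds 3 CHR matches, the nearest 3 bases after the start. All 5 windows shown hold both elements, those of the genes that rose and those of the genes that fell. Of the CDC25C windows not shown, window 2 holds both elements and windows 3 and 4 hold neither.

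Over the 33 members that had a window (the set of RefSeq windows used held none for the other 7), CCAAT was found for 27 genes, or 81.8%, against 39.7% of 27305 genes with a window. TTTGAA was found for 24 members, or 72.7%, against 18.2%, and both for 20 members, or 60.6%, against 7.3%. Counted by window, 77.5% of 40 member windows held CCAAT and 67.5% TTTGAA, against 34.6% and 15.2% of 35116 windows of the same length. Split by the response to SB590885 with the block, TTTGAA was found for 7 of 8 members that rose, 3 of 3 that fell and 14 of 22 others, CCAAT for 6 of 8, 3 of 3 and 18 of 22, and both for 5 of 8, 3 of 3 and 12 of 22. These counts are descriptions of letters, and no binding was measured.

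PD325901 against DMSO asks the same of a MEK inhibitor. No mitosis gene passed without the block (0 of 40 by limma, against 0.086% of all genes higher and 0.506% lower). At an unadjusted p under 0.05, 0 were higher and 2 lower, no more than the share of all genes (6.80%). With the block 3 fell (TOP2A, KIF23 and MKI67) and 0 rose, against 6.18% and 1.96% of all genes, so the share that fell is near the background. The median of the 40 was -0.08, with 34 members lower and 6 higher (all genes -0.00). Centring each array made it -0.10 (37 lower and 3 higher), but after quantile normalisation it was 0.00 (18 lower and 22 higher). Even the lean to lower values thus depends on the scaling. No member lay wholly above the DMSO arrays (1.4% of all genes did) and 2 lay wholly below, CDC20 and MKI67 (2.68% of all genes).

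MKI67 read 9.65, 9.65, 9.39 and 9.56 on PD325901 arrays 1 to 4, all below the lowest DMSO array at 9.70. The difference was -0.19 (SE 0.052, adjusted p = 0.0384 with the block, 0.536 without). Its probe set with a mean of 9.32 differed by -0.02. TOP2A read 12.23, 12.22, 11.29 and 11.59 and was lower in 4 of 4 pairs by -0.19 (SE 0.047, adjusted p = 0.0218 with the block, 0.986 without), and here its second bright probe set differed by as much (-0.20, adjusted p = 0.0306 with the block over all probe sets). KIF23, a motor of the central spindle, was 8.90 to 9.59 against 9.23 to 9.79 and fell by 0.24 (adjusted p = 0.0329 with the block, 0.965 without), with -0.14 over the unmarked and -0.34 over the marked arrays. After quantile normalisation with the block none of these 3 passed (adjusted p 0.0851 to 0.208), and PRC1, which bundles central spindle microtubules, was the 1 call, a rise. Leaving out all arrays of 1 number left 0 to 2 calls.

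CDC25C, KIF11, NDC80, NEK2 and KIF4A each differed from DMSO by at most 0.05 with PD325901. CDC25C was 8.46, 8.52, 8.53 and 8.49 on PD325901 arrays, a difference of 0.00 (95% interval with the block -0.12 to 0.12). KIF11 was 10.21, 10.19, 9.64 and 9.59, a difference of -0.02 (interval -0.11 to 0.08). NDC80 read 10.71, 10.68, 10.33 and 10.34 (-0.03), NEK2 10.74, 10.78, 10.20 and 10.44 (-0.04) and KIF4A 9.73, 9.67, 9.27 and 9.59 (-0.05). CENPF was 10.42, 10.42, 10.16 and 10.38, a difference of -0.10 (interval -0.22 to 0.02), and TTK 10.37, 10.31, 9.82 and 9.85, lower in 4 of 4 pairs by -0.08 (interval -0.20 to 0.03).

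DLGAP5 was 11.95, 11.83, 11.34 and 11.48 and lower in 4 of 4 pairs by -0.18, short of the threshold (adjusted p = 0.0555 with the block). AURKB, at 9.92, 9.93, 9.78 and 9.82, differed by -0.16 (adjusted p = 0.0767 with the block). CDK1 was 12.19, 12.15, 11.59 and 11.78, lower in 4 of 4 pairs by -0.12 (adjusted p = 0.193 with the block). The CDK1 probe set with a mean of 10.83 did pass with the block, at -0.21 (adjusted p = 0.0229 over all probe sets). Those with means of 11.09 (-0.16, adjusted p = 0.0739) and 7.17 (-0.10, adjusted p = 0.399) did not. CCNB1 read 12.13, 12.12, 11.59 and 11.74 (-0.12), AURKA 11.84, 11.72, 11.36 and 11.70 (-0.07), PLK1 7.82, 7.89, 7.97 and 8.03 (-0.08) and FOXM1 9.10, 9.06, 8.85 and 9.05 (0.00). In each of these the PD325901 and DMSO ranges overlapped.

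SB590885 against PD325901 sets the inhibitors against each other, with the DMSO arrays entering only the estimate of spread. Here 3 members were higher with SB590885 without the block, against 1.97% of all genes, and 0 lower, against 0.855%. They were CDC25C by 0.44 (SE 0.075, adjusted p = 0.00946), CENPF by 0.41 (SE 0.074, adjusted p = 0.0123) and AURKB by 0.28 (SE 0.057, adjusted p = 0.0228). With the block 15 were higher and 1 lower (12.4% and 5.73% of all genes). The median was 0.12, with 30 members higher and 10 lower, and it was 0.10 after quantile normalisation and 0.12 after centring. For 6 members every SB590885 array was above every PD325901 array (CDC25C, AURKB, CENPF, KIF4A, MKI67 and FOXM1), where 4.68% of all genes were so and 2.5% the reverse.

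AURKB spanned 10.06 to 10.18 with SB590885 and 9.78 to 9.93 with PD325901, while DMSO lay between, overlapping both. Its call without the block was lost when SB590885 array 2, 3 or 4 or PD325901 array 3 or 4 was left out, over the 8 arrays compared (adjusted p = 0.0561) or the unmarked arrays alone (0.0900), after quantile normalisation (0.303), with trended robust moderation (0.129) and with the mean of its probe sets (0.162); with the block the adjusted p was 0.00170. Those of CDC25C (adjusted p = 0.101) and CENPF (0.0532) were also lost after quantile normalisation without the block, and with the block they were 0.000271 and 3.1e-05. With the block KIF11 was higher by 0.40 (adjusted p = 2.82e-05), TTK by 0.28, KIF4A by 0.28, MKI67 by 0.25, KIF23 by 0.25, NEK2 by 0.21, NDC80 by 0.21 and ASPM by 0.20. The dimmer NEK2 probe set differed by 0.01, and the dimmer ASPM probe sets by 0.20 and -0.03. DLGAP5 was the member that was lower (-0.17, adjusted p = 0.0413). Differences were larger over the marked arrays for several of these: KIF23 differed by 0.09 over the unmarked and 0.42 over the marked arrays, and AURKB by 0.20 and 0.35. The interaction of R mark and treatment here passed for 1 of 19775 genes and 0 members (lowest adjusted p = 0.0998), while 12 of 40 members had an unadjusted p under 0.05, against 11.9% of all genes.

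The rest of the mitotic machinery was read from lists of 141 other genes, 136 of them measured. For SB590885 against DMSO without the block, 1 rose and 4 fell, against 1.59% and 1.69% of all genes. NUMA1, which anchors spindle poles, rose from 9.59 ± 0.036 to 9.95 ± 0.129 (SD, n = 4; adjusted p = 0.0182). The genes that fell were HAUS7, of the augmin complex that branches microtubules (-0.39, adjusted p = 0.00667), SKA3, of an outer kinetochore complex (-0.32, adjusted p = 0.0116), ANAPC7, of the anaphase-promoting complex (-0.26, adjusted p = 0.0275), and CDC25A, a sister of CDC25C (-0.21, adjusted p = 0.0407). With the block 21 rose and 21 fell, and the median was -0.00. All genes were divided as evenly (9.09% and 9.84%). Kinetochore genes went both ways within 1 structure: with the block 5 rose, among them KNL1 (0.34), and 4 fell, among them ZWILCH (-0.29), of 18.

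In the other lists, no gene passed without the block, and the gene with the lowest p was NCAPD2 of the condensin complex (-0.41, adjusted p = 0.0678), PDS5A of cohesin (-0.32), CENPC of the centromere (0.28), the kinesin KIF22 (0.22), the cytokinesis list's TROAP (0.10), the passenger list's HASPIN (-0.15) and TFDP1 of the B-Myb, MuvB and DREAM list (-0.33). For PD325901 against DMSO, 0 of 136 passed without the block (1 higher and 9 lower at an unadjusted p under 0.05, where 6.80% of all genes were), and with it 0 rose and 18 fell (1.96% and 6.18% of all genes), with a median of -0.09. The gene with the lowest p in each list was HASPIN (-0.18), SKA3 (-0.16), CENPB (-0.17), NCAPD2 (-0.28), PDS5A (-0.19), ANAPC2 (0.13), CDC25A (-0.13), KIFC1 (-0.11), HAUS7 (-0.19), DEPDC1B (-0.35) and TFDP1 (-0.28). For SB590885 against PD325901, CDCA8 (borealin), a passenger partner of AURKB, was the 1 gene to pass (0.27, adjusted p = 0.0496). In the other lists the gene with the lowest p was MAD1L1 (0.18), CENPB (0.14), NCAPG (0.29), NIPBL (0.32), ANAPC7 (-0.16), CKS2 (-0.31), KIFC1 (0.27), NUMA1 (0.26), RHOA (0.15) and E2F5 (-0.60). With the block 43 were higher and 6 lower (12.4% and 5.73% of all genes). Of 10 output genes of ERK, the kinase below Raf and MEK, 3 fell with each (DUSP4, DUSP6 and ETV5), and ETV5 differed by -1.21 with SB590885 and -1.82 with PD325901 (adjusted p = 6.18e-05 and 5.98e-07).

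DNA replication and G1-S genes, the neighbouring cell cycle group, showed a wider gap between the inhibitors. Of 43 measured, 41 were lower than DMSO with PD325901, at a median of -0.16 (36 lower and a median of -0.09 after quantile normalisation), with 1 call without the block, CCNE1 (cyclin E1, -0.90, adjusted p = 0.00139). With the block 17 fell and 0 rose, against 6.18% and 1.96% of all genes. With SB590885 the median was 0.00, CCNE1 fell (-0.53, adjusted p = 0.0173) and TK1, which makes thymidylate, rose (0.24, adjusted p = 0.0316), and with the block 5 rose and 6 fell (9.09% and 9.84% of all genes). Between the inhibitors the median was 0.18, with 1 call without the block (TK1, 0.24, adjusted p = 0.0307) and 27 higher and 1 lower with it (12.4% and 5.73% of all genes). The median level of the 40 mitosis genes on single arrays was 10.90 to 11.12 with DMSO, 10.96 to 11.15 with SB590885 and 10.79 to 11.10 with PD325901. Those ranges overlapped, and in each group arrays 3 and 4 were the lower pair. Array by array of the same number, the SB590885 median was above DMSO in 4 of 4 pairs, by 0.028 to 0.13, and above PD325901 in 4 of 4, by 0.011 to 0.27, while PD325901 was above DMSO in 1 of 4, on the scale as deposited. These compare medians of level, set by the few genes near the middle, and are not typical changes of the genes. For SB590885 against DMSO the median of the gene differences was 0.017, with 23 members higher and 17 lower.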

How the data were processed

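RNA of 12 arrays, 4 per group, was analysed. The deposited unit is log2 expression of a probe set, computed by the authors through RMA in R 3.0.1, per the submitters' processing notes. Joint normalisation of the 12 arrays is neither stated nor denied there, and the number of arrays limits the precision. Of 54675 probe sets, 62 controls were left out, 41091 had 1 gene symbol in the platform annotation, 1801 several and 11721 none. Each of 19775 genes took its probe set with the highest mean (the 40 members had 84 probe sets, 17 members a single one). The comparisons used limma 3.58.1 (R 4.3.3): group means over 12 arrays, empirical Bayes without trend, and Benjamini-Hochberg adjustment over all genes, called at an adjusted p under 0.05. The code was tested on simulated data with independent noise on each array. Those data held no shift shared by array number or R mark.

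The labels number the arrays 1 to 4 in each group. Deviations from the group means correlated at 0.544 to 0.913 between arrays of the same number (12 pairs), 0.123 to 0.646 between other arrays of the same R mark and -0.718 to -0.443 between arrays of opposite mark, so the number was used as a block. The R mark was tested with the treatment as a term and the replicate number as a random block (duplicateCorrelation, consensus correlation 0.00255). At that correlation the random block had almost no effect (TOP2A adjusted p = 2.31e-07 by limma without it), so arrays of the same number counted as nearly independent. Per the design text the replicates are biological, and it names no pairing. Without the block p-values reflect how far arrays of a group differ. With the block they reflect the scatter left once the array number is taken out.

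The members and lists were chosen with earlier results of these data known. Values on every array are given for members that passed in any comparison in either fit, at most 12 by lowest adjusted p, and for CCNB1, CDK1, PLK1, MKI67 and FOXM1. From the lists, genes that passed without the block are named (at most 4 a list), else the gene with the lowest p; KNL1 and ZWILCH were named after their values were seen, as were other probe sets of members. Alternatives were the block, the R mark as a term, the marked or the unmarked arrays alone, centring, quantile normalisation, other choices of probe set, low genes left out, trended robust moderation, only the 8 arrays compared and leaving out arrays. Promoter windows and motifs came from RefSeq on GRCh38.p14.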

Additional observations from a re-analysis of the deposited data

Results flagged for a closer look

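In 5 of 120 groups of 4 arrays (40 genes in 3 groups), the array farthest out stood apart from the other arrays by more than Dixon's 95% limit, and chance flags about 1 in 20 groups. CDC25C was 9.15 on SB590885 array 4 against 8.86 to 8.89 on the others. Without that array its difference from DMSO was 0.37 (limma adjusted p = 0.0123). CENPF was 10.16 on PD325901 array 3 against 10.39 to 10.42, and without that array SB590885 exceeded PD325901 by 0.35 (limma adjusted p = 0.0254). MKI67 was 9.87 on DMSO array 2 against 9.70 to 9.72. PTTG1 was 11.92 on SB590885 array 3 against 12.24 to 12.28. ESPL1 was 10.05 on DMSO array 2 against 9.80 to 9.84.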

How the results depend on the processing

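The count of mitosis genes called depends on how the arrays are compared. Shares of all genes are given above only for the fits with and without the block and, for SB590885 against DMSO, the marked and unmarked arrays. For the other settings the counts alone do not tell a change in the members from a change in all genes. For SB590885 against DMSO, 2 without the block became 13 with the replicate block, 10 where the R mark was a term, 13 over the unmarked and 3 over the marked arrays alone, 7 after quantile normalisation, 1 after centring, 1 with trended robust moderation, 0 with probe sets lacking an s, x or a mark, and 1 to 3 when an array was left out. Added after seeing the data, the replicate block gave 17 with quantile normalisation, 12 with centring, 10 with the mean of all probe sets and 8 to 10 without the arrays of 1 number.

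For PD325901 against DMSO, 0 became 3 with the replicate block, 0 where the R mark was a term, 0 over the unmarked and 2 over the marked arrays (AURKB and KIF23), and the block gave 1 with quantile normalisation, 5 with centring, 2 with the mean of probe sets and 0 to 2 without the arrays of 1 number. Leaving out single arrays without the block gave 0. For SB590885 against PD325901, 3 became 16 with the replicate block, 12 where the R mark was a term, 7 over the unmarked and 11 over the marked arrays, 1 with probe sets lacking such a mark and 2 to 3 when an array was left out, and the block gave 19 with quantile normalisation, 13 with centring, 12 with the mean of probe sets and 9 to 13 without the arrays of 1 number.

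Directions also turned, and the cause was not tested. The median of the members in PD325901 against DMSO went from -0.081 to 0.0025 with quantile normalisation and that in SB590885 against DMSO from 0.017 to -0.0020 with centring. With probe sets lacking an s, x or a mark, which can lie on other transcripts, CENPF in SB590885 against DMSO was at -0.075 and KIF23 in PD325901 against DMSO at 0.020. Quantile normalisation put the median R-mark difference of the members at 0.050. Over all genes, the calls for SB590885 against DMSO went from 649 to 3742 with the block, for PD325901 against DMSO from 117 to 1610, and for SB590885 against PD325901 from 558 to 3582.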
